A study of Mus musculus with 38 samples.

Results

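Testes of LuRKO mice, which lack the receptor for luteinizing hormone, were examined 8 h after a single intraperitoneal injection of 2.5 mg testosterone propionate at day 19 after birth, counted with birth as day 1. The 2 arrays of this group were set against 4 low-dose arrays of LuRKO testes taken 24 h after an injection of the same ester at the same age, 2 at 250 ng and 2 at 2.5 µg. These 6 arrays were chosen from 38 by their labels, and every probe with 1 gene symbol was considered, 34885 of 45281. Of those, 28537 lay above background (a log2 intensity of 6.54) on at least 2 of the 38 arrays and were tested; they stood for 16412 genes, each represented by its probe of highest mean. The other arrays used for reference were of LuRKO testes 4 h and 12 h after 2.5 mg, untreated LuRKO testes at day 19 and untreated wild-type littermate testes at day 19, with 2 arrays each. Each array held testis RNA pooled from 2 animals, and the spread behind each p-value is that between such pools. LuRKO testes carry the receptor deficiency from birth, and both the 8 h and the low-dose groups carry it. The 8 h and low-dose groups differ at once in dose and in hours after injection (8 against 24, and so in age). They also differ in the sample series that their titles name, and these cannot be told apart. The titles set apart 2.5 mg testosterone, testosterone 24 h post injection and postpartum development, and they name no array batch. In whole testis, fewer cells of a type and less RNA per cell also cannot be told apart.

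Luteinizing hormone drives Leydig cells, which lie between the seminiferous tubules, to make testosterone. Testosterone acts through the androgen receptor, a transcription factor found in Sertoli, peritubular myoid and Leydig cells but not needed within germ cells themselves. Sertoli cells, which hold and feed the germ cells, carry the best known direct targets, such as the homeobox gene Rhox5, while germ cells respond through them. The androgen and luteinizing hormone receptor genes were not analysed here.

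The sequences shown first are the promoter windows of the kallikrein genes Klk1b21, Klk1b24 and Klk1b26, which were among the largest increases, of Klk1b9, a neighbour whose probe was below background on all 6 arrays, and of Rhox5, the reference androgen target. Kallikreins are secreted serine proteases, and the mouse Klk1b genes are a cluster of closely related copies on chromosome 7. Each window runs 5′ to 3′ on the gene's strand, from 250 bases before to 50 after the start, from RefSeq on GRCm38.p6. Capitals mark the letters AGAACA or, where they lie on the other strand, their reverse complement, the half-site that steroid receptors of this class bind.
Klk1b21 (chr7:44102042-44102341, plus strand): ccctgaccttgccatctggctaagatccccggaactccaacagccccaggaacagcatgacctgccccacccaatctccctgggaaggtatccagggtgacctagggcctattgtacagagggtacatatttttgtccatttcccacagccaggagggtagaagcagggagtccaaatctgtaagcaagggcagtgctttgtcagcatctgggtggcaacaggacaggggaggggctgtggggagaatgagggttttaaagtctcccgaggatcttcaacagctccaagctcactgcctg
Klk1b24 (chr7:44187986-44188285, plus strand): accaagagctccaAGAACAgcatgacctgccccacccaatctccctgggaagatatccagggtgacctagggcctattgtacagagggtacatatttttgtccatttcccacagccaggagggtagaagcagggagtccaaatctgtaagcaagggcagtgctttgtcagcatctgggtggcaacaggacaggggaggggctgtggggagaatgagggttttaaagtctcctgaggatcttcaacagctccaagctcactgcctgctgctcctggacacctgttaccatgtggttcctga
Klk1b26 (chr7:44012428-44012727, plus strand): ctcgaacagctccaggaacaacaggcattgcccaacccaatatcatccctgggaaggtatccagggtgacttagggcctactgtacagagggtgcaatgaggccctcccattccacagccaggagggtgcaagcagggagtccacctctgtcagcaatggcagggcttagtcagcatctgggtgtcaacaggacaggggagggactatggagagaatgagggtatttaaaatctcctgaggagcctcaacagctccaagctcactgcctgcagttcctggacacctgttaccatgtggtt
Klk1b9 (chr7:43975811-43976110, plus strand): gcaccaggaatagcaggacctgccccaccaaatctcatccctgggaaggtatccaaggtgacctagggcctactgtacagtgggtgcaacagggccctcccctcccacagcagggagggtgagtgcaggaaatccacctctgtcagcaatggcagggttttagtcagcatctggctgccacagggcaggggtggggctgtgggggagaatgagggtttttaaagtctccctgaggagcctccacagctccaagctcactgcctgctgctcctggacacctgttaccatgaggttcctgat
Rhox5 (chrX:37754358-37754657, plus strand): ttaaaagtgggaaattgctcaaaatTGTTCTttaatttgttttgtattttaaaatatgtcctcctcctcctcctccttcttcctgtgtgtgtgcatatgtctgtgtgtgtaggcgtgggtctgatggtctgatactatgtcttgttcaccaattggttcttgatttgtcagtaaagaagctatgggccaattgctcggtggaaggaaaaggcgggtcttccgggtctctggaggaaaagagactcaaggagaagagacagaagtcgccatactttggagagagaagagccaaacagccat
1 such match was found in the Klk1b24 window, beginning 237 bases before the start, and 1 in the Rhox5 window, 225 bases before it. None was found in the windows of Klk1, Klk1b5, Klk1b21, Klk1b26, Klk1b27 or Klk1b9. Of all 32851 promoter windows of this length, 18.974% hold AGAACA on either strand. The full element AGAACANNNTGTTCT was in none of these windows and in 3 of all windows, and the relaxed element GNACANNNTGTNC was in none of these and in 156 of all. After pairwise global alignment, the 10 pairs of called Klk1b genes had windows that were 60.8% to 83.1% identical, with a median of 77.3%. The 20 pairs of a called and an uncalled Klk1b gene had 55.4% to 83.9%, with a median of 75.0%; the uncalled genes include Klk1b8 and Klk1b9, which were not detected on any of the 6 arrays.

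2 checks of the arrays bear on what follows. The array labelled vehicle replicate A goes against its label: its log2 intensity was 10.92 for Rhox5, 10.64 for Drd4 and 12.34 for Insl3, against 8.17, 7.97 and 9.24 on vehicle replicate B. It is in no group set against the 8 h arrays here except where the vehicle arrays are named, but it adds to the spread that the model pools over all groups. Fits without it were added after seeing the data. LuRKO day 13 replicate B (Rhox5 10.62, against 9.07 on replicate A) also stood apart and enters that spread. So does wild-type day 3 replicate A, with 10.62 for the meiotic gene Ldhc against 7.72 on replicate B. Untreated and low-dose LuRKO testes also differed. Against the untreated arrays the low-dose arrays were called higher at 1184 genes and lower at 1328 (15.3% of genes), while against the vehicle arrays they were called higher at 13 and lower at 10 (0.14%). The vehicle arrays in that count include replicate A. The untreated arrays served only as a second comparison, a role set when the arrays were chosen. All arrays had the same distribution of intensities after the authors' normalization, with medians from 108.1 to 108.3, and 27009 to 27048 probes above background on each.

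At 8 h after 2.5 mg, testes showed more large increases than large decreases relative to low-dose testes. In all, 252 genes were higher (1.54% of those tested) and 169 lower (1.03%) by limma with Benjamini-Hochberg adjusted p under 0.05, together 2.57%. Of the genes called, 20 were over 2-fold higher (a log2 difference over 1) and none was over 2-fold lower. Increases were led by Ampd3, an enzyme that deaminates AMP, 4 kallikrein genes of the Klk1b cluster with Klk1 itself, and the Sertoli cell genes Rhox5 and Drd4. The median log2 difference was 0.01 over all genes, and its median size was 0.53 over the genes called higher and 0.52 over those called lower. The 8 h arrays lay wholly above or wholly below all 4 low-dose arrays at 4262 genes (26%, 14.8% above and 11.2% below), most of which did not pass the test. The counts lean on single arrays: without 8 h replicate A 64 genes were called and without replicate B 95, without 250 ng replicate B 153 and without 2.5 µg replicate B 275.

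**Figure D1:**
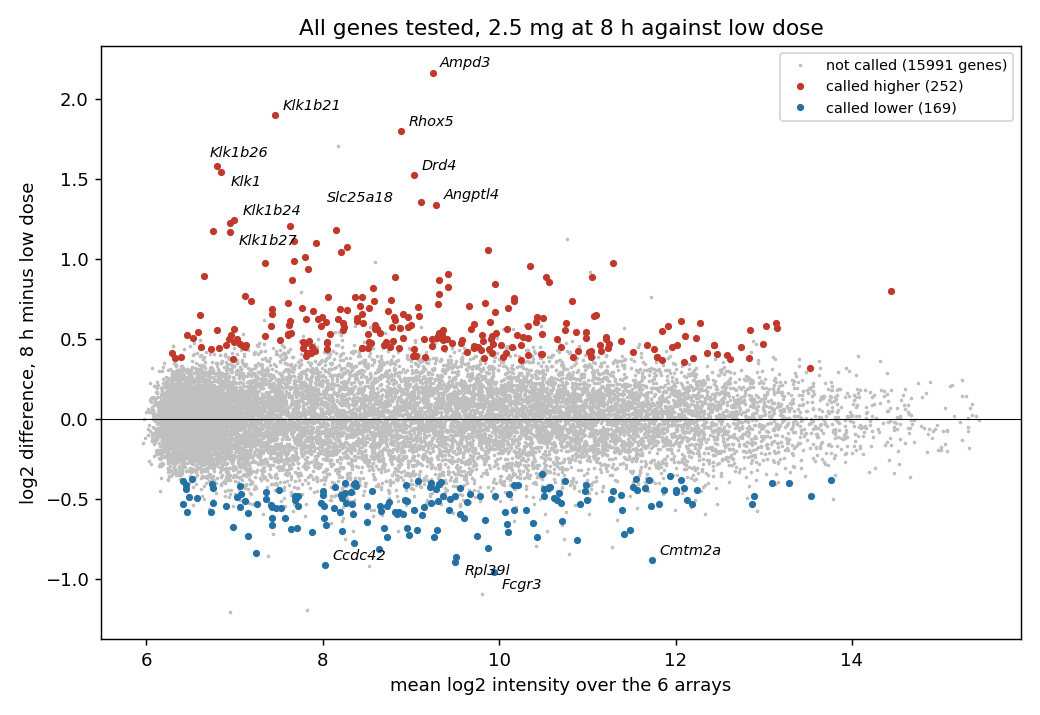
Each point is 1 of 16412 genes, with its mean log2 intensity over the 6 arrays on the x axis and its log2 difference, 2.5 mg at 8 h minus low dose, on the y axis. Red points are the 252 genes called higher and blue points the 169 called lower; the 10 largest increases and 4 of the largest decreases are named, and no called decrease passes -1.

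Ampd3 had the largest increase. Its log2 intensity was 10.51 and 10.88 on the 8 h arrays, against 8.64 and 8.51 at 250 ng and 8.44 and 8.51 at 2.5 µg. The groups were far apart, by 2.17 (SE 0.11), or 4.49-fold, with an adjusted p of 2.83e-14 (limma). Over the time course of 2.5 mg it stood at 8.49 and 8.42 untreated, 9.53 and 9.34 at 2 h, 10.20 and 9.96 at 4 h, 10.51 and 10.88 at 8 h and 10.26 and 10.12 at 12 h. The single array at 24 h read 10.61. The 8 h level also exceeded that of wild-type testes, 9.03 and 9.12, by 1.62 (SE 0.13, adjusted p 6.60e-11).

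Of the tissue kallikrein genes, 6 of the 16 tested were called higher and none lower, against 1.54% of all genes called higher; the family was singled out after its values had been seen. Klk1b21, a kallikrein known from mouse Leydig cells, was above background on all 6 arrays. It had 8.77 and 8.68 at 8 h, against 6.61 and 6.83 at 250 ng and 6.90 and 6.96 at 2.5 µg, a difference of 1.90 (SE 0.34, adjusted p 0.00175). Both 8 h arrays lay above all 4 low-dose arrays, which the rule for naming the largest increases required. Wild-type testes had 8.84 and 8.88, and the difference from them was -0.13 (adjusted p 0.845, standard error 0.39). Klk1b24 had 7.77 and 7.87 at 8 h, against 6.34 and 6.75 at 250 ng and 6.61 and 6.60 at 2.5 µg, and rose by 1.24 (adjusted p 0.000493). Klk1b27 had 7.79 and 7.74 at 8 h, against 6.17 and 6.37 at 250 ng and 7.16 and 6.46 at 2.5 µg, and rose by 1.23 (adjusted p 0.00300). For Klk1b27 the 2.5 µg replicate A array stood above the other 3, which were below background. It was still below both 8 h arrays, as the same rule required. Klk1b24 was below background on 1 low-dose array.

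A further 3 kallikreins were below background on all 4 low-dose arrays, so their increase has only a lower bound. Klk1, the kallikrein that releases kinin from kininogen, had 8.14 and 7.63 at 8 h, against 6.15 to 6.48 at low dose, and was at least 2.54-fold higher (adjusted p 6.04e-07). Klk1b26 had 8.17 and 7.54 at 8 h, against 6.15 to 6.41 at low dose, and was at least 2.49-fold higher (adjusted p 2.34e-06). Klk1b5 had 7.50 and 7.00 at 8 h, against 6.22 to 6.43 at low dose, and was at least 1.64-fold higher (adjusted p 4.68e-05). Against wild-type testes, Klk1 and Klk1b5 at 8 h were higher, by 0.98 (adjusted p 9.17e-05) and 0.69 (adjusted p 0.000255, with 1 wild-type array below background), while the Klk1b26 difference of 0.48 did not pass (adjusted p 0.0799).

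The 10 other kallikreins tested were not called. Of these, Klk13, Klk1b8, Klk1b9 and Klk5 were below background on all 6 arrays and Klk10 and Klk1b11 on both 8 h arrays, so that a response of these 6 could not be measured. Klk8, the 1 above background on all 6, had 0.16 (adjusted p 0.477). Probes for such related copies can bind each other's transcripts, and how far they do so was not tested. The second probe of Klk1b27 gave 1.28 and that of Klk1b24 gave 0.94. The dim other probes of Klk1b21 gave 0.41 and 0.39, and that of Klk1b26 gave 0.25. All of these other probes thus had positive differences. Over the time course Klk1b21 had 7.71 and 7.76 at 2 h, 8.79 and 8.42 at 4 h, 8.77 and 8.68 at 8 h and 8.54 and 8.75 at 12 h. Neither step, 8 h against 4 h (0.12, adjusted p 0.999) nor 8 h against 12 h (0.08, adjusted p 0.959), passed the test.

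**Figure D2:**
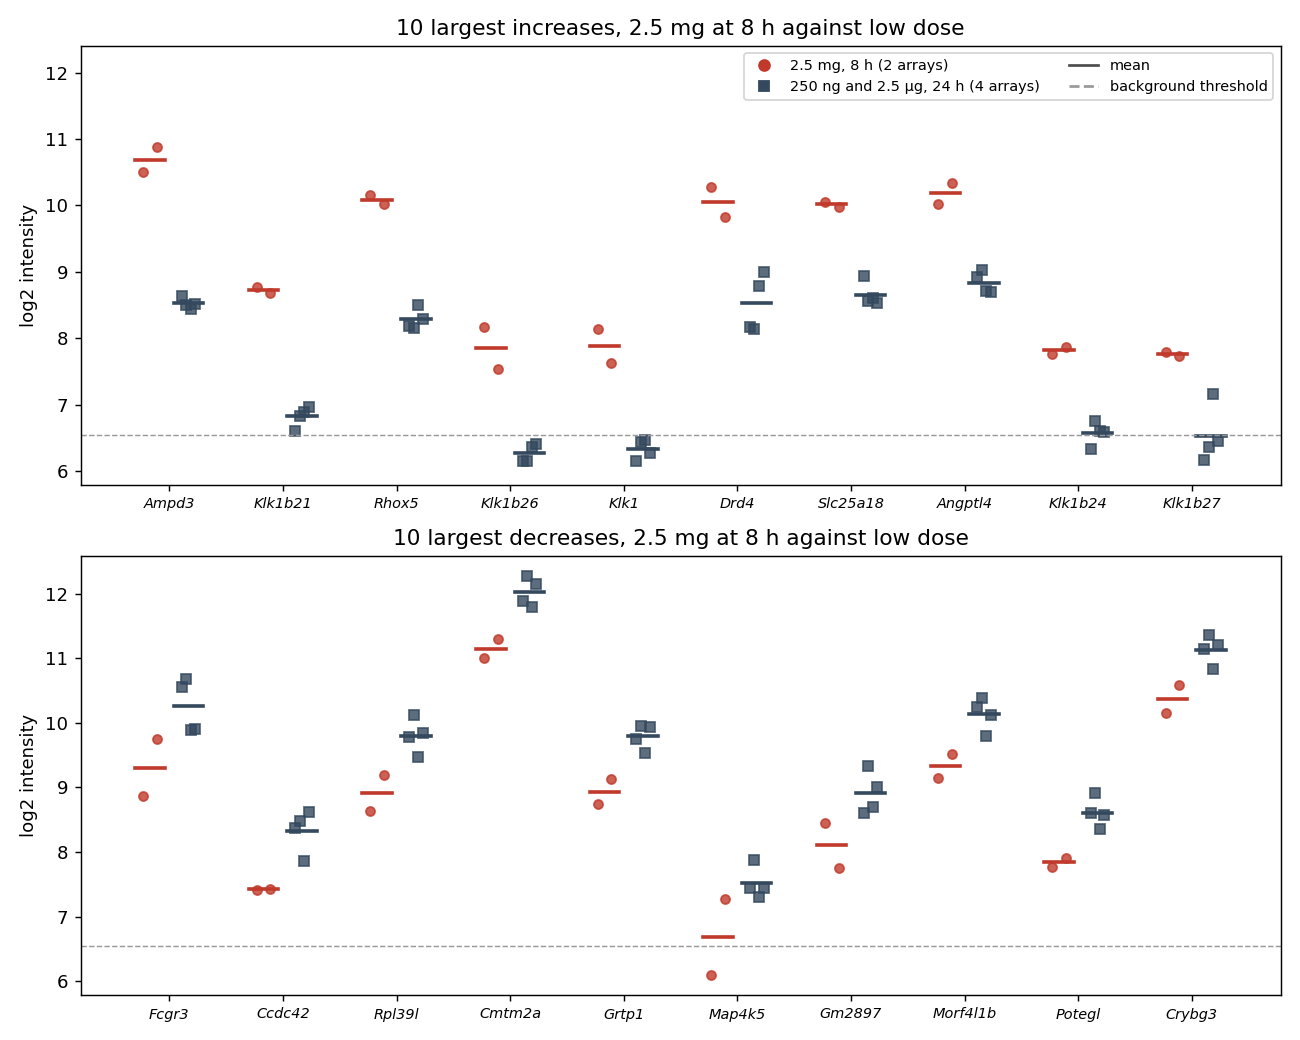
Log2 intensity of the 10 largest increases (top) and the 10 largest decreases (bottom), with the 2 arrays of 2.5 mg at 8 h in red on the left and the 4 low-dose arrays in dark blue on the right of each gene; short lines are group means and the dashed line is the background threshold of 6.54. The groups do not overlap at any of the 20 genes, which the rule for naming them required, and Klk1 and Klk1b26 lie below the threshold on all low-dose arrays.

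Rhox5, an X-linked homeobox gene that Sertoli cells switch on in response to androgen, was higher at 8 h, and higher still on the later arrays. It had 10.15 and 10.02 at 8 h, against 8.19 and 8.16 at 250 ng and 8.50 and 8.29 at 2.5 µg. The difference was 1.80 (SE 0.39), or 3.49-fold, with an adjusted p of 0.0104 (limma); without the array labelled vehicle A in the fit the adjusted p was 4.15e-05 at the same difference. It had 8.00 and 7.83 untreated, 8.49 and 8.34 at 2 h, 8.98 and 9.33 at 4 h, 10.15 and 10.02 at 8 h and 11.06 and 10.88 at 12 h, and the single 24 h array read 11.92. The steps on either side did not pass the test, at 0.93 over 4 h (adjusted p 0.764) and -0.88 against 12 h (adjusted p 0.396). At 8 h it remained below wild-type testes, which had 11.49 and 11.32, by -1.32 (adjusted p 0.0228).

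Drd4, the dopamine D4 receptor gene and an androgen-responsive gene of Sertoli cells, was higher as well. It had 10.28 and 9.82 at 8 h, against 8.18 and 8.14 at 250 ng and 8.786 and 9.004 at 2.5 µg, a difference of 1.52 (SE 0.33, adjusted p 0.0107). The 2.5 µg arrays lay above the 250 ng arrays. The 8 h arrays were above all of them, as the rule for the largest increases required. Without the array labelled vehicle A its adjusted p was 1.63e-07. Against wild-type testes, with 10.66 and 10.62, the difference was -0.59 (adjusted p 0.257).

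Of 16 tested androgen-responsive Sertoli cell genes, Rhox5 and Drd4 were called higher and none lower (1.54% and 1.03% of all genes). The median was 0.17 over the list against 0.01 over all genes, and without vehicle A in the fit 3 were called. Eppin, a protease inhibitor that coats sperm, had 10.84 and 11.04 at 8 h, against 10.41, 10.23, 10.84 and 10.56 at low dose, and its difference of 0.43 did not pass (adjusted p 0.128). Tubb3, the neuronal-type tubulin that androgen raises in Sertoli cells, had 0.33 (adjusted p 0.0805). The lowest member, Tsx, had -0.47 (adjusted p 0.192). Among 19 general Sertoli cell markers, the transcription factor Sox8 alone was called, at 9.07 and 9.39 at 8 h against 8.38 to 8.76 at low dose (0.64, adjusted p 0.00325). Amh, the hormone of immature Sertoli cells that androgen shuts down, had 0.18 (adjusted p 0.57), and the list's median was 0.10. The summed intensity of the 19 markers ranged over 115000 to 117000 at 8 h and 107000 to 117000 at low dose, so those ranges overlapped.

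Of the 10 largest increases, 6 were called whichever of the 6 arrays was left out: Ampd3, Angptl4, Klk1, Klk1b24, Klk1b26 and Slc25a18. Rhox5, Drd4 and Klk1b27 lost the call when either 8 h array was left out, with adjusted p up to 0.167 for Rhox5 and 0.224 for Drd4, and Klk1b21 was not called without 8 h replicate A. None of the 10 largest decreases was called under all 6. Of all 50 named genes called, 9 were called under all 6, the further ones being Cd209f, Hspa5 and Igf1. In contrast 16 were still called in at most 2 of the 6: Angptl7, Chac1, Fcer1g and Fkbp5 in 1, and Cmtm2a, Dbp, Egfl7, Hif3a, Hsp90aa1, Idi1, Polr1b, Potegl, Star, Tcf21, Xbp1 and Zfp36 in 2. Against the vehicle replicate B array alone, a single array assumed to vary like the other groups, all 50 kept their direction. That comparison reuses the 8 h arrays by which these genes were called, so the direction was largely set by the choice. A kept direction also says little about size, and sizes were uneven. Among the genes called lower Fcgr3 had -1.53, while Rpl39l had -0.24, Idi1 -0.09 and Hsp90aa1 -0.09. Among those called higher Ampd3 had 2.15, while Star had 0.19 and Egfl7 0.17.

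**Figure D3:**
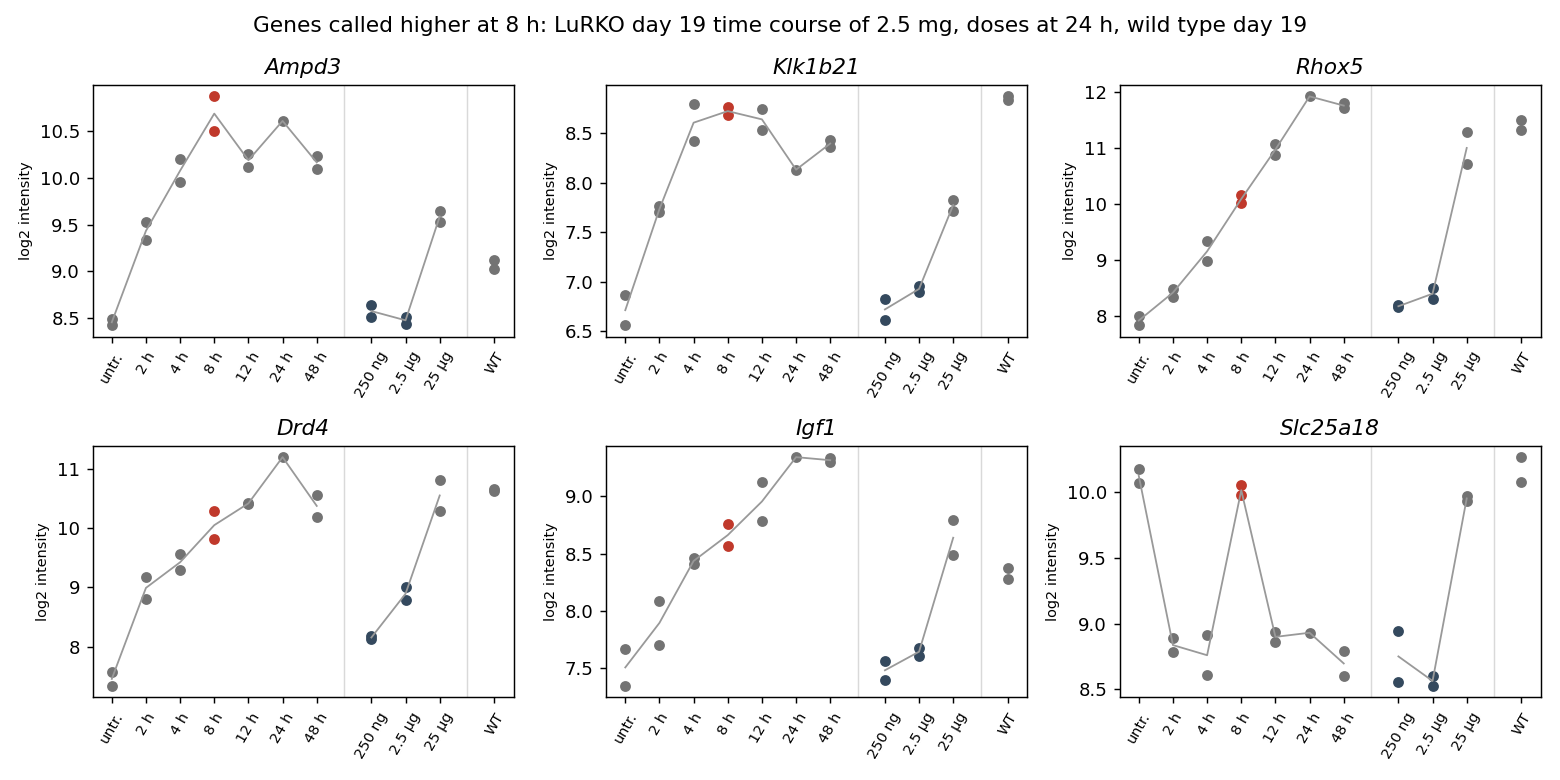
Log2 intensity of 6 genes called higher at 8 h, 1 point per array, over the 2.5 mg time course from untreated to 48 h, over 250 ng, 2.5 µg and 25 µg at 24 h, and in wild-type (WT) testes; red marks 8 h, dark blue the low-dose arrays, and lines join group means. Ampd3 and Klk1b21 reach near their peak by 4 to 8 h, Rhox5 stands at 11.92 at 24 h, and Slc25a18 is about as high in untreated and wild-type testes and at 25 µg as at 8 h.

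Angptl4, a secreted inhibitor of lipoprotein lipase and a target of both the androgen and the glucocorticoid receptor, had 10.02 and 10.34 at 8 h, against 8.93 and 9.03 at 250 ng and 8.71 and 8.69 at 2.5 µg. It rose by 1.34 (SE 0.15), or 2.53-fold (adjusted p 1.13e-06). Of 25 tested targets shared by these receptors 4 were called higher and none lower, against 1.54% and 1.03% of all genes, with a median of 0.20; without vehicle A in the fit 5 were called. The others were Dusp1, a phosphatase that switches off MAP kinases, at 0.67 (adjusted p 0.00141), Hif3a, a hypoxia-inducible factor subunit, at 0.44 (adjusted p 0.0215) and Fkbp5, a chaperone of steroid receptors, at 0.41 (adjusted p 0.0349, still called in 1 of the 6 fits that left out an array). Members not called included Tsc22d3, which mediates anti-inflammatory effects of glucocorticoids, at 0.12, Zbtb16, a zinc finger repressor, at 0.18 and the clock gene Per1 at 0.16. Over the time course Dusp1 had 9.75 and 9.42 untreated, 10.34 and 10.29 at 2 h, 10.55 and 10.35 at 4 h, 10.49 and 10.31 at 8 h, 9.62 and 9.40 at 12 h, 10.08 on the single 24 h array and 9.60 and 9.68 at 48 h. The 8 h level exceeded that at 12 h by 0.89 (adjusted p 0.000732), and the 24 h array lay between them.

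Among 24 immediate early genes, which cells switch on within minutes of a stimulus, 4 were called higher and none lower (1.54% and 1.03% of all genes), with a median of 0.03. Ccn1, a secreted matrix protein, had 7.86 and 7.49 at 8 h, against 6.83 to 7.09 at low dose (0.74, adjusted p 0.000435). Fosl2, a subunit of the AP-1 factor, had 9.47 and 9.62 at 8 h, against 8.59 to 9.04 at low dose (0.70, adjusted p 0.00317). Klf6, a zinc finger factor, rose by 0.51 (adjusted p 0.00448) and Zfp36, which speeds decay of inflammatory mRNAs, by 0.44 (adjusted p 0.0283). The classical members Fos (0.46, adjusted p 0.0723), Egr1 (0.31, adjusted p 0.256) and Jun (0.04) did not pass. Among 15 circadian clock genes 2 were lower and none higher (1.03% and 1.54% of all genes), with a median of -0.13: the repressor Nr1d1, at 6.40 and 6.94 at 8 h against 7.36 to 7.43 at low dose (-0.73, adjusted p 0.000915) with 8 h replicate A below background, and the output factor Dbp, at -0.44 (adjusted p 0.0254). The labels give no hour of day for the collections, so hours after injection and hour of day cannot be told apart for these genes. Against untreated testes the Dbp difference was 0.09 (adjusted p 0.670).

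In the list of fetal and immature interstitial markers 2 genes were called. Igf1, a growth factor made by interstitial cells, had 8.76 and 8.57 at 8 h, against 7.39 and 7.56 at 250 ng and 7.68 and 7.61 at 2.5 µg. It rose by 1.10 (SE 0.17), or 2.15-fold (adjusted p 0.000493), and its second probe gave 0.44. Tcf21, a transcription factor of interstitial progenitor cells, had 10.73 and 10.71 at 8 h, against 9.92 to 10.44 at low dose (0.58, adjusted p 0.0164). These were the 2 called, both higher, of 9 markers of fetal or immature Leydig cells and interstitial stem cells, whose median was 0.11. Over all genes 1.54% were called higher and 1.03% lower. Of 7 adult Leydig cell markers none was called, with a median of 0.12 and summed intensities of 2140 to 2280 at 8 h against 1950 to 2200 at low dose.

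Of 12 steroidogenesis genes Star alone was called, higher by 0.46 (adjusted p 0.0362), against 1.54% of all genes called higher. Star carries cholesterol into mitochondria, the first step of steroid synthesis. Its level was close to background, 7.03 and 7.40 at 8 h against 6.54 to 6.96 at low dose, and against the vehicle replicate B array alone the difference was 0.19 (adjusted p 0.688). The enzymes did not pass: Cyp17a1, which makes androgen precursors, had 0.12 (adjusted p 0.934) and Cyp11a1, which cleaves the cholesterol side chain, had -0.12 (adjusted p 0.751). Hsd3b1 was below background on all 4 low-dose arrays and on 1 of the 2 arrays at 8 h, and so was hardly detected. Insl3, a hormone of mature Leydig cells, had 8.68 and 9.14 at 8 h, against 8.79 to 9.22 at low dose. It remained far below wild-type testes, which had 13.01 and 12.70, by -3.95 (adjusted p 4.05e-08).

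Further increases over 2-fold, outside the lists and chosen after their values were seen, included secreted and surface proteins. Nrp1, a co-receptor for semaphorins and vascular growth factor, had 10.54 and 10.62 at 8 h, against 9.43 to 9.60 at low dose (1.06, SE 0.09, adjusted p 3.02e-08). Parm1, a mucin-like gene first known from androgen-deprived rat prostate, rose by 1.07 (adjusted p 1.13e-06) and Tmem100, a small membrane protein, by 1.05 (adjusted p 2.02e-05). The chemokine genes Ccl12 and Ccl9 rose by 1.18 (adjusted p 0.000232) and 1.17 (adjusted p 2.55e-05). Ccl12 was below background on 3 of the 4 low-dose arrays, and the 2 arrays at 8 h differed for Ccl9, with 7.25 and 8.19. Cd209f, a lectin of the DC-SIGN family, had 8.49 and 8.38 at 8 h, against 7.06 to 7.47 at low dose (1.21, adjusted p 4.67e-05). All 6 were also called higher against untreated testes, by 0.82 to 1.39.

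Slc25a18, a mitochondrial glutamate carrier, did not share that. It had 10.05 and 9.98 at 8 h, against 8.94 and 8.56 at 250 ng and 8.60 and 8.53 at 2.5 µg, a difference of 1.36 (adjusted p 9.98e-06). Untreated testes, however, had 10.07 and 10.18 and wild-type testes 10.27 and 10.08, so the difference from untreated testes was -0.11 (adjusted p 0.753). Its 2 h, 4 h and 12 h arrays read 8.61 to 8.94, the single 24 h array of 2.5 mg 8.93 and the 48 h arrays 8.60 and 8.79, while the 25 µg arrays at 24 h read 9.93 and 9.97. Its level thus was high or low by array group with no order in dose or time, and 8 h exceeded 4 h by 1.25 (adjusted p 0.00405). Lats1, a kinase of the Hippo pathway, was alike in part: 8.63 and 8.21 at 8 h, against 6.85 to 7.74 at low dose (1.11, adjusted p 0.00465), but 7.97 and 8.35 untreated, a difference of 0.26 (adjusted p 0.521).

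Immune and vessel markers showed single calls, against 1.54% of all genes called higher and 1.03% lower. Of 13 macrophage markers 1 was called, Fcer1g, the signalling chain of Fc receptors, at 8.58 and 8.35 at 8 h against 7.22, 6.91, 8.00 and 7.68 at low dose (1.01, adjusted p 0.0487). It was still called in 1 of the 6 fits that left out an array, and its 2.5 µg arrays lay above its 250 ng arrays; the list's median was 0.18. Fcgr3, an Fc receptor for immunoglobulin G outside that list, was the largest called decrease, at 8.87 and 9.75 at 8 h against 10.56 and 10.69 at 250 ng and 9.89 and 9.91 at 2.5 µg (-0.96, adjusted p 0.00739). The 2 arrays at 8 h differed by nearly as much as the groups, and replicate B lay just under the 2.5 µg arrays. In wild-type testes the Fcgr3 probe read 7.58 and 7.43 at day 3 and 11.41 and 11.22 at day 27. Fcer1g went the other way there, from 9.50 and 8.81 to 7.30 and 7.12. Which cells the Fcgr3 signal came from was not tested. The summed macrophage intensity was 3590 to 3750 at 8 h, against 3250 to 3350 at low dose. None of the 13 markers was below background on all 6 arrays, and the part of macrophage number in Fcer1g was not tested. Of 13 endothelial markers Egfl7, a vessel matrix protein, was called (0.47, adjusted p 0.0243), with sums of 5270 to 5350 at 8 h and 4170 to 5040 at low dose. None of 6 erythroid genes was called by the probe that stood for it, although another bright probe of the globin gene Hbb-bs passed at 0.72 (adjusted p 0.0396); all 6 lay above 0, with a median of 0.40 and sums of 28400 to 29100 at 8 h against 18600 to 24600 at low dose. That difference in blood cell transcripts stands beside the endothelial and macrophage values, and its part in them was not tested.

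The largest decreases were smaller than the largest increases. Ccdc42, a coiled-coil protein needed for the sperm tail, had 7.42 on both 8 h arrays, against 8.37 and 8.48 at 250 ng and 7.86 and 8.62 at 2.5 µg, lower by -0.91 (adjusted p 0.00490). Rpl39l, a testis copy of a ribosomal protein gene, had 8.63 and 9.19 at 8 h, against 9.77 and 10.12 at 250 ng and 9.47 and 9.84 at 2.5 µg (-0.89, adjusted p 0.00175); against vehicle replicate B alone it had -0.24 (adjusted p 0.711). Cmtm2a, a testis membrane protein, had 11.001 and 11.296 at 8 h, against 11.80 to 12.27 at low dose (-0.88, adjusted p 0.0160). Both 8 h arrays lay below every low-dose array for all 3, which the rule for naming them required. Grtp1 (-0.86), the kinase gene Map4k5 (-0.84), Gm2897 (-0.81), Morf4l1b (-0.81), Potegl (-0.77) and Crybg3 (-0.76) complete the 10 largest, with adjusted p from 0.00175 to 0.0312. For Map4k5 replicate A was below background and its 3 other probes gave -0.20 to 0.03.

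Of 19 spermatogonial markers 2 were called lower and none higher (1.03% and 1.54% of all genes), with a median of -0.02 against 0.01 over all genes. Ddx4, an RNA helicase of germ cells, had 10.867 and 10.998 at 8 h, against 11.67 and 11.85 at 250 ng and 11.52 and 11.56 at 2.5 µg (-0.71, adjusted p 0.00645). Id4, a transcriptional inhibitor that marks spermatogonial stem cells, had 10.85 and 11.19 at 8 h, against 11.35 to 11.71 at low dose (-0.57, adjusted p 0.00645). Second probes lay lower too, by -0.45 for Ddx4 and -0.42 for Id4. Stra8, which starts meiosis, had -0.60 without passing (adjusted p 0.156).

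None of 21 meiotic genes was called, with a median of -0.01, and the largest, Sycp1 of the synaptonemal complex, had -0.46 (adjusted p 0.0835). None of 29 spermatid genes was called either, with a median of -0.16, but their summed intensity was lower, 24100 to 27100 at 8 h against 27500 to 33900 at low dose. Crisp2, a sperm surface protein, came closest at -0.61 (adjusted p 0.0554), and without vehicle A in the fit it was called (adjusted p 0.0430); against vehicle replicate B alone it had -0.03. The protamine gene Prm1 was below background on all 6 arrays. 

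**Figure D4:**
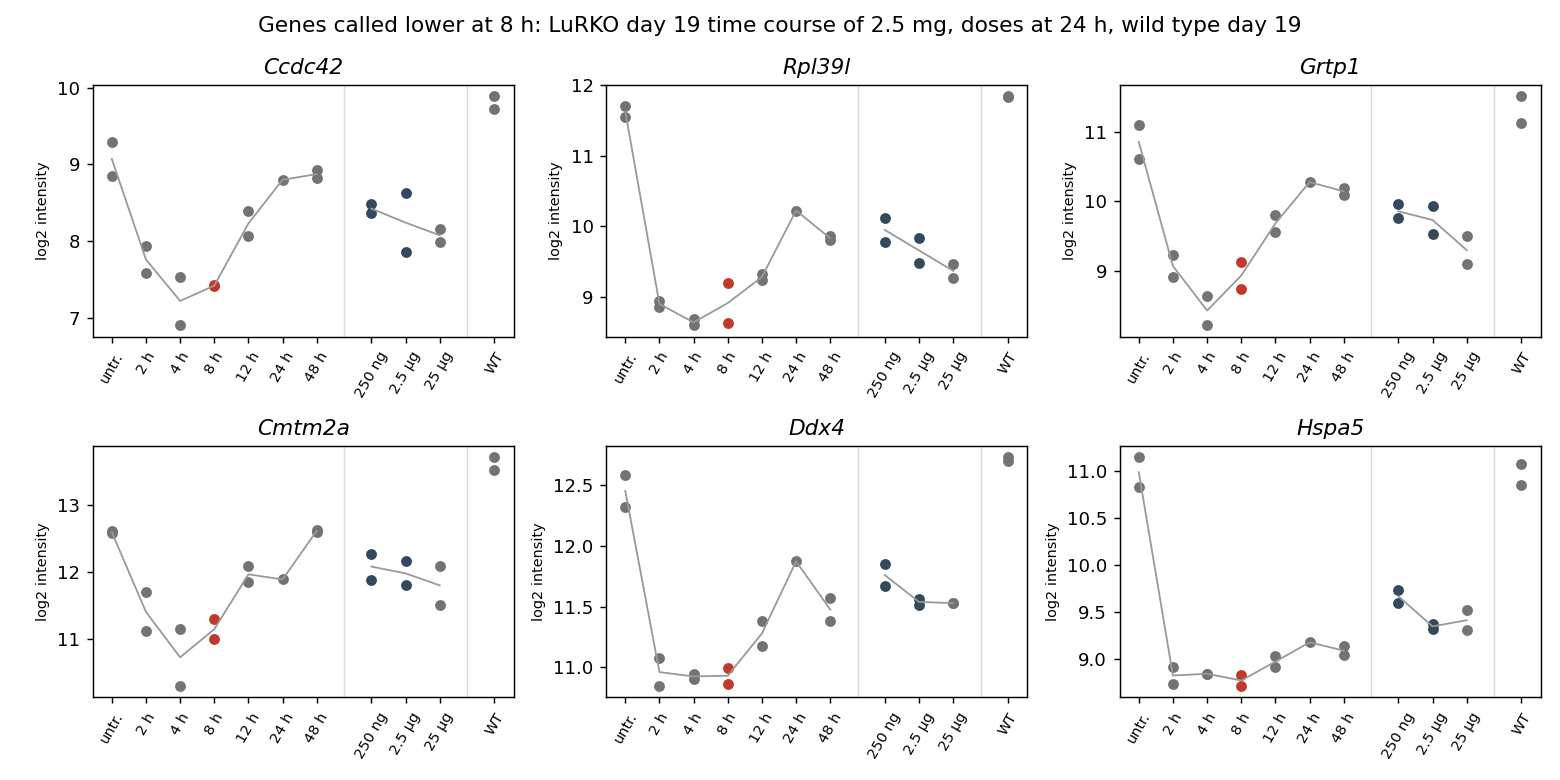
Log2 intensity of 6 genes called lower at 8 h, laid out by time, dose and wild type as for the genes called higher. All 6 are highest in untreated or wild-type testes, lie low from 2 h to 8 h after 2.5 mg, and are higher again by 24 h, with the low-dose arrays between the 8 h and the untreated arrays.

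The level of these genes in other groups qualifies the decreases. Across the 169 genes called lower, the low-dose arrays were below the untreated arrays by a median of -0.29, against 0.03 over all genes, and at 31 of them (18.3%) by more than 1, against 1.31% of all genes. Hspa5, the main chaperone of the endoplasmic reticulum, shows it: it had 8.71 and 8.83 at 8 h, against 9.32 to 9.74 at low dose (-0.74, adjusted p 0.000635), but 11.15 and 10.83 untreated. Rpl39l read 11.71 and 11.55 untreated, Ddx4 12.58 and 12.32, and Idi1, an enzyme of isoprenoid synthesis called lower by -0.54 (adjusted p 0.0239), 9.79 and 9.38. Against vehicle replicate B alone Idi1 had -0.09 (adjusted p 0.895). Injected testes at 2 h were already at 8.91 and 8.74 for Hspa5, and at 8.94 and 8.85 for Rpl39l. Other bright probes were less clear: 30 of the 169 genes had 41 further probes with a mean over 8, of which 27 lay in the same direction with a median of -0.09, against -0.45 for the probes used. Among the genes called higher, 59 had 77 such probes, of which 63 lay in the same direction, with a median of 0.25 against 0.50. Over all genes tested, 2290 of 3540 such probes lay in the same direction as the probe used. The share among the genes called lower was close to that. The part of the sample series in the decreases was not tested.

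Stress and metabolic lists held few calls, against 1.54% of all genes called higher and 1.03% lower. Of 18 endoplasmic reticulum stress genes, Xbp1, a factor of the unfolded protein response, was higher (0.43, adjusted p 0.0441), and Hspa5 and Chac1 were lower. Chac1, which degrades glutathione, had 6.88 and 7.22 at 8 h, overlapping the low-dose range of 7.06 to 8.42 (-0.53, adjusted p 0.0404). It was still called in only 1 of the 6 fits that left out an array in turn, and it was 1 of the 3 genes (0.0183%) called between the 2 low doses themselves, all lower at 2.5 µg than at 250 ng. Of 11 heat shock genes the chaperone Hsp90aa1 was lower (-0.38, adjusted p 0.0239), with 1 of its other probes at -0.76 and -0.09 (adjusted p 0.852) against vehicle replicate B alone. Of 17 cholesterol genes Sc5d, a late enzyme of the pathway, was higher (0.47, adjusted p 0.0104) and Idi1 lower. Of 20 vitamin A genes Aldh1a3, which makes retinoic acid, was lower (-0.55, adjusted p 0.00623). Of 13 tight junction genes Cldn1 was lower, at 7.36 and 7.45 at 8 h against 7.91 to 8.34 at low dose (-0.70, adjusted p 0.00397), and F11r, a junction adhesion molecule, was higher (0.50, adjusted p 0.0103). Of 18 nucleolar genes Polr1b, a subunit of RNA polymerase I, was higher (0.69, adjusted p 0.0180).

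No member was called in 6 other lists: 19 cell cycle genes (median 0.02), 18 matrix genes (0.02), 11 myoid and smooth muscle markers (0.04), 6 polyamine genes (0.04), 18 interferon-induced genes (-0.15) and 5 epididymal markers (-0.05). Their members of largest difference were Mcm5, a replication helicase subunit (0.40, adjusted p 0.0556, with 1 cell cycle gene called without vehicle A in the fit), the collagen gene Col3a1 (-0.34, adjusted p 0.278), Myh11, smooth muscle myosin (-0.29, adjusted p 0.258), Srm, which makes spermidine (0.35, adjusted p 0.0735), Ifit3 (-0.50, adjusted p 0.484) and Lcn5, which was below background on both 8 h arrays. The polyamine gene Odc1, often raised by androgen, had -0.04 (adjusted p 0.921).

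**Figure D5:**
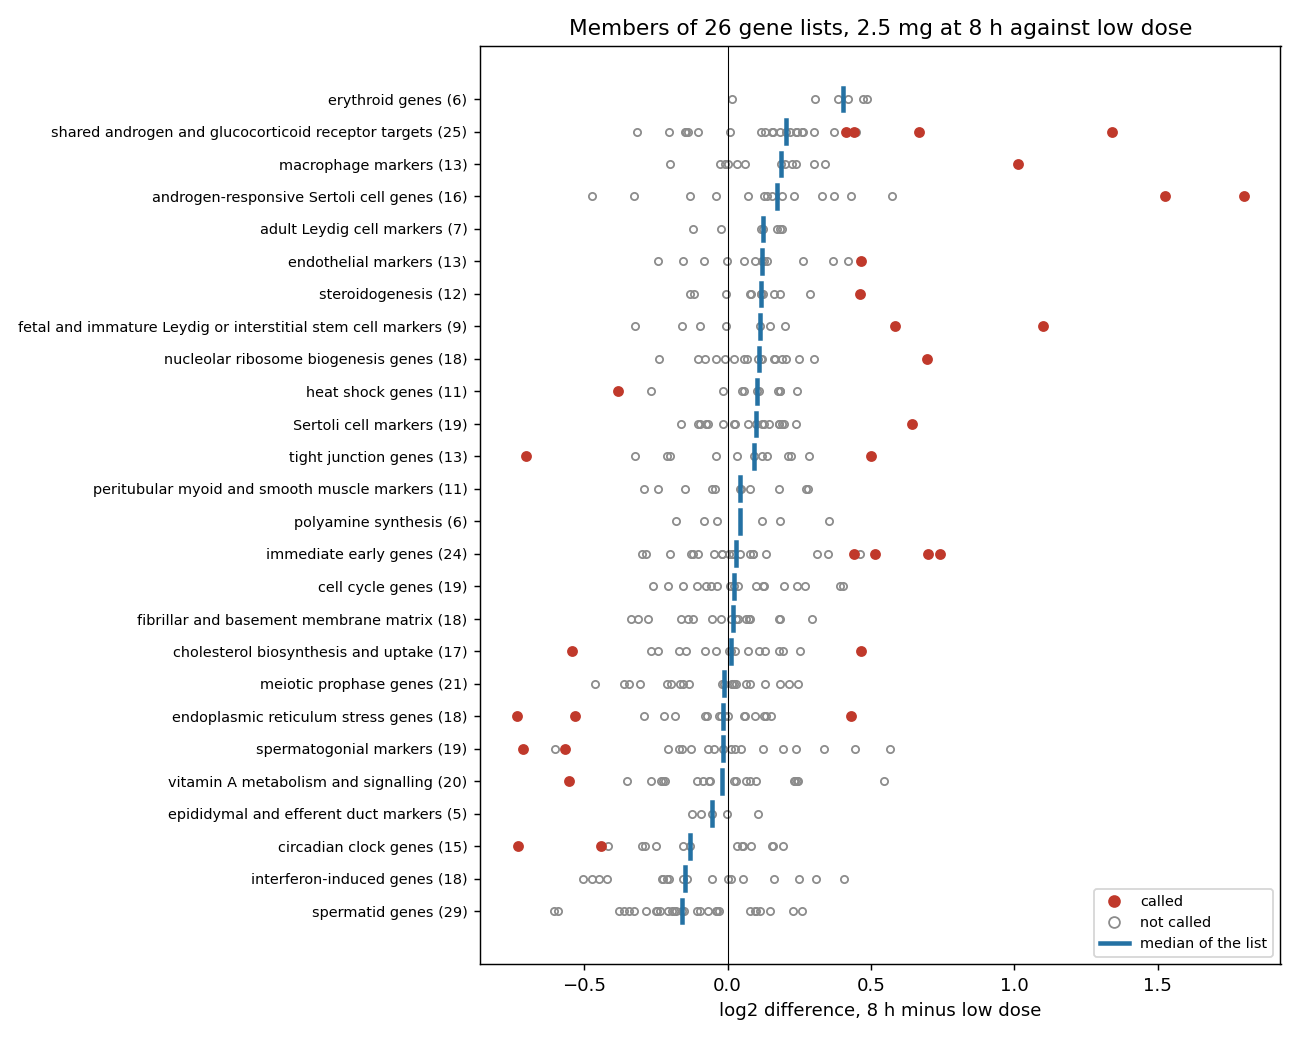
Log2 difference, 2.5 mg at 8 h minus low dose, of every tested member of 26 gene lists, with the number tested in brackets; red points were called, open points were not, and blue bars are list medians. No list has more than 4 called members, and list medians lie between -0.16 (spermatid genes) and 0.40 (erythroid genes).

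Set against the neighbouring times, 8 h had fewer genes called against 4 h than against 12 h, but that order leaned on single arrays. All these comparisons share the 8 h arrays. Against 4 h only 6 genes were higher and 2 lower (0.0487% of genes, 0.0366% and 0.0122%), and 1144 had an unadjusted p under 0.05. Without 4 h replicate A 195 genes were called, without 4 h replicate B 2, without 8 h replicate A 13 and without 8 h replicate B none. Gpd2, a mitochondrial glycerol phosphate dehydrogenase, had 8.82 and 8.92 at 8 h, against 6.83 and 7.38 at 4 h (1.77, adjusted p 0.00573). It was within the low-dose range, 8.48 to 9.15, so that the 4 h arrays were the low ones. Cd209f exceeded 4 h by 1.13 (limma adjusted p 0.00746). Its 4 h arrays read 7.74 and 6.88, the second below all low-dose arrays, while its 2 h arrays read 7.86 and 7.72. Ccn5, a secreted relative of Ccn1, exceeded 4 h by 0.93 (limma adjusted p 0.00746), with 8.43 and 8.71 at 8 h against 7.63 on both 4 h arrays. The genes lower than at 4 h were Trim9, a ubiquitin ligase (-0.87, adjusted p 0.000900), and Ccn2, a matrix protein of the same family as Ccn1 (-0.70, adjusted p 0.0444). Slc25a18 was also higher, and the others were 1700025F24Rik (0.90, adjusted p 0.0266) and Ppp2r2c (0.76, adjusted p 0.0444).

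Against 12 h, 27 genes were higher and 149 lower (1.07% of genes, 0.165% and 0.908%); without 12 h replicate A 8 genes were called and without 8 h replicate A 15. The higher ones were led by Lats1, with 8.63 and 8.21 at 8 h against 6.69 and 7.52 at 12 h (1.32, adjusted p 0.00823), followed by Slc25a18 (1.12, adjusted p 0.00314), Angptl7, a secreted angiopoietin-like protein (1.07, adjusted p 0.0111), and Dusp1. The largest decreases were Gm20815 (-2.89, adjusted p 0.00556), Gtsf1l (-2.21, adjusted p 1.64e-06), Gm21943 (-1.92, adjusted p 0.00733) and Gm2888 (-1.88, adjusted p 9.71e-05). Gtsf1l, a testis paralog of a piRNA pathway factor, had 6.13 (below background) and 6.54 (at the threshold) at 8 h, so that its difference rests on a level hardly detected, against 8.996 and 8.10 at 12 h, and wild-type testes had 9.52 and 9.70. Spermatid genes were among those lower than at 12 h: 7 of 29 were called lower and none higher (0.908% and 0.165% of all genes), with a median of -0.41 against 0.02 over all genes. Acrv1, a protein of the acrosome, was below background on both 8 h arrays and at least 2.48-fold lower than at 12 h (adjusted p 0.000576). The 12 h arrays are 4 h older than the 8 h arrays, and the 2 replicates at 12 h differed for Gm20815, with 11.62 and 9.99.

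Against untreated testes of day 19 the same 8 h arrays were higher at 1617 genes and lower at 1466 (18.8%, of which 9.85% and 8.93%), and without 8 h replicate A 1599 genes were called, without untreated replicate A 1977. Ampd3 (2.24), Klk1b21 (2.01), Rhox5 (2.17), Drd4 (2.59), Angptl4, Klk1, Klk1b26, Klk1b24 and Klk1b27 were again higher, with adjusted p of at most 0.000717. The last 4 were below background on both untreated arrays, so that their increases have lower bounds of 2.54-, 2.49-, 2.435- and 2.34-fold. Of the 10 largest increases Slc25a18 alone was not called higher here. Of the androgen-responsive Sertoli cell genes 8 of 16 were higher and 1 lower, with a median of 0.38 against 0.04 over all genes, and Eppin was among them (0.80, adjusted p 0.00130). These comparisons share the 8 h arrays, and the titles place the untreated arrays in another sample series, that of postpartum development. Against wild-type testes of day 19, 3482 genes were higher and 2632 lower (37.3%, of which 21.2% and 16%). Of the spermatid genes 22 of 29 were lower than in wild type and none higher, with a median of -0.94 against 0.05, and 7 of 16 androgen-responsive Sertoli cell genes were lower and 3 higher.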

How the data were processed

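Testis RNA was hybridised to 38 single-colour Illumina arrays in 20 groups, read with BeadStudio per the submitters' processing notes. The deposited intensity values, already on a common distribution, were used as given; no label names the software behind that step. A second table with 76 columns that match no label was not used. Log2 intensities of 28537 probes were fitted with limma 3.58.1 in R 4.3.3, with 1 mean per group over all 38 arrays, and p-values were adjusted by Benjamini-Hochberg over these probes; a gene was called under 0.05. Probes were named from the platform annotation: 34885 have 1 symbol, 18 several and 10378 none listed. Where all 4 low-dose arrays lay below background, "at least" folds use the higher of the background threshold and the probe's own value.

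The arrays, the 26 gene lists and the tests were chosen with earlier results of these data known. Genes were named by rule: the 10 largest calls each way whose groups do not overlap, 4 each way against 4 h and 12 h, up to 4 of each list and a panel of 16; others are marked as chosen after their values were seen. In a simulation of the comparison over 16412 genes, 34 of 67 genes changed by 0.5 on the log2 scale, 66 of 67 changed by 1 and 66 of 66 changed by 2 were recovered, with 6 false calls. Alternatives covered background correction, scaling, probe filters, other references and leaving out arrays. Precision is limited by how few arrays each group has.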

Additional observations from a re-analysis of the deposited data

Results flagged for a closer look

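The log2 intensity of Klf6 was 10.8 on the 2.5 µg replicate A array, set apart from the other 3 low-dose arrays, which read 11.10 to 11.16; both 8 h arrays were higher, at 11.54 and 11.58. It was the only 1 of 80 named genes so set apart by Dixon's criterion, which chance passes in about 1 in 20 groups. Rhox5 read 10.92 on the array labelled vehicle replicate A, against 8.17 on vehicle replicate B. Vehicle replicate A is in neither group of 8 h against low dose, but it adds to the spread pooled for that comparison.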

How the results depend on the processing

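The 421 genes called against low dose became 252 with normexp background correction at offset 16 and 114 when fitted on the compared groups alone. They became 269 against the 250 ng arrays alone, 171 against the 2.5 µg arrays alone, 3083 against untreated testes, 766 against the single 24 h array of 2.5 mg and, added after seeing the data, 162 against vehicle replicate B alone. Leaving out 1 array gave 64 to 572. Against untreated testes (3083) the compared groups alone gave 1421 and leaving out 1 array 1599 to 2559. Against 4 h (8) offset 16 gave 3, the mean of a gene's probes 5 and the compared groups alone 4, with 0 to 195 when 1 array was left out. Against 12 h (176) offset 16 gave 84 and the compared groups alone 14, with 8 to 145 when 1 array was left out. Between the low doses (3) offset 16 gave 0, probes above background on every array of a group 1, the mean of probes 1 and the fit without vehicle A 5, with 0 to 5 when 1 array was left out. The cause of these shifts was not tested, beyond the fewer arrays that some fits hold.

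Direction turned for 16 values at which the main fit or the other fit called the gene. Against the vehicle arrays Cyp17a1 was -1.76. Against untreated testes Dbp was 0.092, Hsd3b1 -0.51, Prm1 -1.54 and Slc25a18 -0.11. Against the 24 h array Ccn2 was 0.59, Ccn5 -1.39, Cldn1 0.27, Cyp11a1 0.96, Drd4 -1.15, Fkbp5 -0.10, Igf1 -0.68, Rhox5 -1.83, Sox8 -0.034, Xbp1 -0.013 and Zfp36 -0.079. Of the other values of named genes, 1599 kept their side of the threshold, 273 lost the call and 29 gained it. The 1599 include values that turned direction where neither fit called the gene, such as Insl3, which reached 0.12 with an array left out.

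With the replicate letter as a block 434 genes were called against low dose, and all 80 named genes kept their side of the threshold. The letters only name samples: same-lettered arrays of 8 h and 250 ng deviated with a correlation of -0.106 and of 8 h and 2.5 µg with 0.139. The low number of arrays limits small differences most.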
